A study of Mus musculus with 6 samples.

Results

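The brush border peptidases described here are 8 membrane enzymes of the apical surface of enterocytes, encoded by Anpep, Enpep, Xpnpep2, Dpp4, Naaladl1, Ace, Mep1a and Mep1b. They were taken by name from a table of 21534 genes, in which each has 1 row, and all 8 passed the filter on low counts that left 13700 genes to be tested. Polyadenylated RNA came from ileal enteroids (closed epithelial organoids grown from small intestine) of wild-type C57Bl/6 mice, labelled as intestinal stem cells. Retinoic acid enteroids (RA, 3 libraries) received 10 µM all-trans retinoic acid for 24 hours, and vehicle enteroids (Veh, 3 libraries) received DMSO. All had first spent 96 hours with 10 µM CHIR99021, which switches on Wnt signalling by blocking GSK3. The vehicle enteroids are therefore not an untreated baseline. No enteroids without CHIR99021 were in the comparison, so how far CHIR99021 enriched stem cells cannot be read from these libraries. The comparison asked how retinoic acid, which cells make from vitamin A, changed transcript levels in such cultures. Whether the 3 libraries of a group stem from different mice or separate wells is not in the labels, and the p-values therefore reflect sample-to-sample spread that may be technical.

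Brush border peptidases finish the digestion of protein. They trim the peptides left by pancreatic proteases into amino acids and into di- and tripeptides, which the transporters beside them take up. The aminopeptidases cut from the amino end, the dipeptidyl peptidases release residues in pairs, and the meprins cut within chains. Several of the enzymes also act on hormones, among them the angiotensins and the incretins, and several are induced as cells leave the crypt and mature on the villus.

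The total read count was between 15080190 and 21833846 in the RA libraries and between 14919144 and 16927696 in the Veh libraries, and the 8 members together held 4102 to 7701 reads per RA library and 4427 to 5641 per Veh library. Library 3 of each group stood apart from libraries 1 and 2 on the second principal component, which held 20% of the variance, so results are also given without library 3 of both groups, a choice made after the data were seen. Epithelial markers were abundant (6 genes, summed level 10120 to 11040 CPM in RA, where CPM are counts per 1000000 reads of the scaled library, and 10280 to 10960 in Veh). Several members are also made by endothelium, fibroblasts, pericytes or leukocytes, and markers of those cells were summed as well. The 6 endothelial genes summed to 1.01 to 2.31 CPM in RA and 2.02 to 2.96 in Veh, with no Emcn read in RA, and the 5 pericyte and smooth muscle genes to 0.708 to 0.984 and 0.770 to 1.33. The 7 fibroblast genes summed to 3.09 to 3.74 CPM in RA and 5.2 to 5.32 in Veh, mostly Pdgfrb. The leukocyte gene Ptprc had 0 reads over the RA libraries and 2 over the Veh libraries, and the 7 immune genes reached 23.3 to 26.2 CPM in RA and 21.85 to 25.7 in Veh mostly through Csf1r. Markers of crypt base stem cells (5 genes) summed to 427 to 451 CPM in RA and 599 to 666 in Veh, and those of proliferating cells (4 genes) to 250.7 to 310 in RA and 368 to 408 in Veh, so both sums were lower with retinoic acid. The 8 enterocyte markers summed to 762 to 1053 CPM in RA and 931 to 1073 in Veh, and changed in both directions. Their median log2 fold change, RA over Veh, was 0.07, with Fabp1 at 4.71, Alpi at -0.83 and Sis at -0.40 among them. The 4 goblet cell markers summed to 4028 to 4446 CPM in RA and 4410 to 4901 in Veh. Those of Paneth cells (4 genes) summed to 3896 to 4176 CPM in RA and 4278 to 4604 in Veh. In bulk RNA fewer cells of a type and less RNA per cell cannot be told apart, and the part of these shifts in the changes of the peptidases was not tested.

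Of the 8 peptidase genes 4 fell with retinoic acid and none rose. The 4 were Ace, Mep1a, Enpep and Xpnpep2, called where edgeR's quasi-likelihood test gave a p below 0.05 after Benjamini-Hochberg adjustment over all 13700 genes. Over all tested genes 4.09% were called lower and 5.37% higher. In these 4 genes all RA libraries lay below all Veh libraries, as for 12.6% of all tested genes, and in none did all RA libraries lie above, as for 12.9%. Of the other 4, Anpep had a negative log2 fold change and Dpp4, Naaladl1 and Mep1b had positive ones, with overlapping groups. The median log2 fold change of the 8 was -0.47, against -0.008 over all tested genes. Without library 3 of both groups 5 members were lower and 2 higher, since Anpep joined the first and Mep1b and Naaladl1 the second. The authors' deposited table, whose statistics are from DESeq per the file headers, has 3 of the 8 lower at an FDR under 0.05 (Ace, Mep1a and Xpnpep2) and none higher, and its fold changes have the same sign as those here for all 8.

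**Figure D1:**
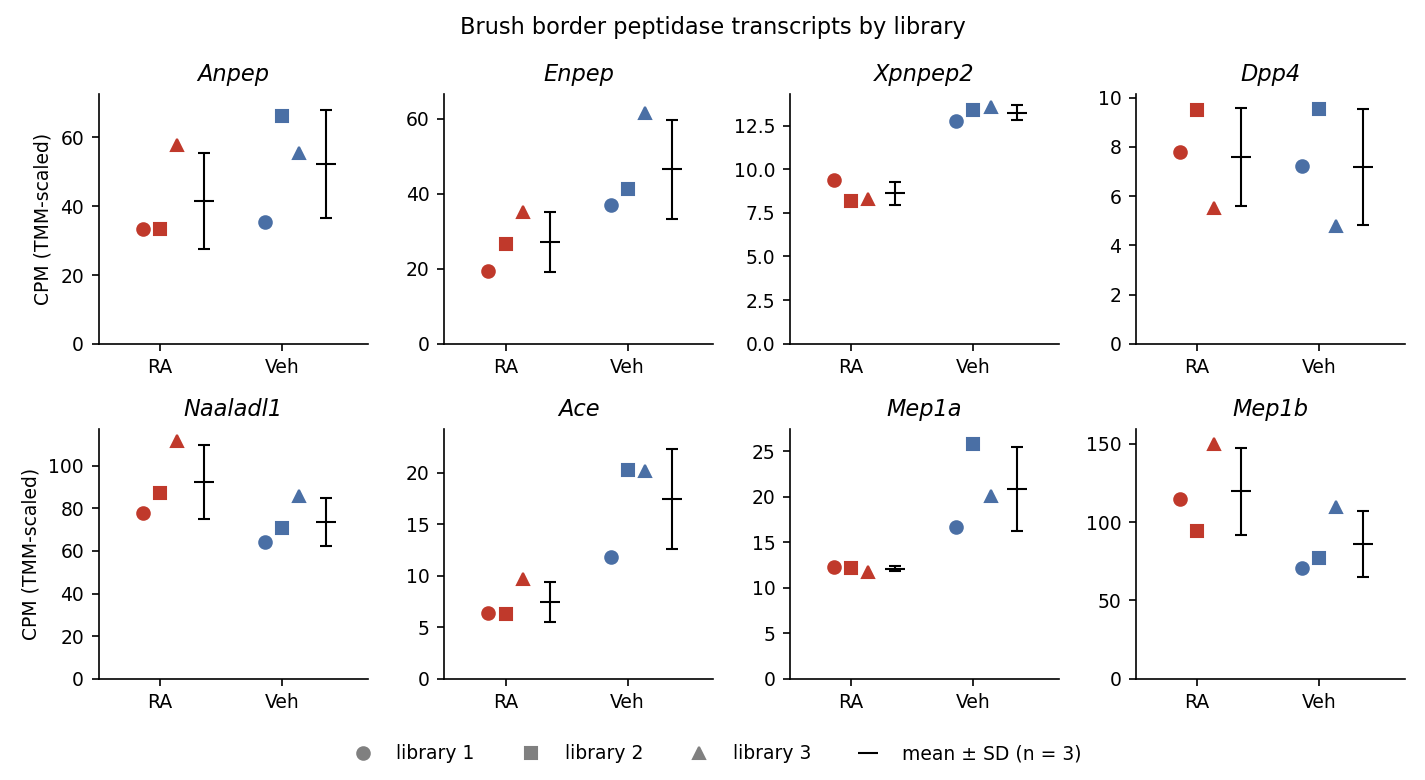
Level of each of the 8 transcripts in every library, in CPM of the TMM-scaled library size, with RA libraries in red and Veh libraries in blue. Marker shapes give the library number, black bars give the mean ± SD (n = 3), and each panel starts at 0. Ace, Mep1a, Enpep and Xpnpep2 have all RA points below all Veh points, and in Enpep the gap is narrow, at 35.2 CPM in RA library 3 and 36.9 CPM in Veh library 1.

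Ace encodes angiotensin-converting enzyme, which removes dipeptides from the carboxyl end of peptides and makes angiotensin II from angiotensin I (ENSMUSG00000020681, mm10 chromosome 11, 105967945 to 105989964, plus strand). Its level was 6.38, 6.31 and 9.70 CPM in RA libraries 1, 2 and 3, against 11.9, 20.3 and 20.1 CPM in Veh libraries 1, 2 and 3. The highest RA library lay under the lowest Veh library, which was library 1. The mean was 7.46 ± 1.94 CPM in RA and 17.4 ± 4.84 CPM in Veh (SD, n = 3 each), and the fitted fold was 0.431 (log2 fold change -1.21, SE 0.21, edgeR adjusted p = 0.00203). This was the most negative log2 fold change among the 8. It ranged from -1.45 to -1.09 when 1 library was left out, and the gene stayed called each time. Ace shares 267 bases of its exons (5.23%) with an antisense gene, Gm11651, which had 72 reads over the 6 libraries. Whether the counting used strand is not known from the sources used. The gene has an intragenic second start that makes the shorter germ cell form, and gene counts do not separate the forms.

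Mep1a encodes the alpha subunit of meprin, an astacin-type zinc endopeptidase that is largely secreted (ENSMUSG00000023914, mm10 chromosome 17, 43474324 to 43502812, minus strand). It was at 12.3, 12.2 and 11.8 CPM in RA libraries 1, 2 and 3, against 16.7, 25.8 and 20.1 CPM in Veh libraries 1, 2 and 3. The RA libraries were nearly level with each other while the Veh libraries spread widely, and the groups did not overlap. The mean was 12.1 ± 0.273 CPM in RA and 20.9 ± 4.61 CPM in Veh (SD, n = 3 each), and the fold was 0.579 (log2 fold change -0.79, SE 0.14, edgeR adjusted p = 0.00276). It stayed called without each library in turn (-0.93 to -0.60).

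Mep1b encodes the beta subunit, which stays in the membrane, cleaves the mucin MUC2 and can pair with the alpha subunit (ENSMUSG00000024313, mm10 chromosome 18, 21072344 to 21100199, plus strand). It was at 115, 94.6 and 150 CPM in RA libraries 1, 2 and 3, against 70.9, 77.4 and 110 CPM in Veh libraries 1, 2 and 3. Library 3 was the highest of each group, and Veh library 3 lay above RA library 2. The mean was 120 ± 27.8 CPM in RA and 86.0 ± 20.8 CPM in Veh (SD, n = 3 each), with a fold of 1.39 (95% interval 1.10 to 1.76). The log2 fold change of 0.48 (SE 0.16) was not called at an unadjusted p of 0.00867 and an edgeR adjusted p of 0.0765. In edgeR it was called higher without RA library 2 (0.62, adjusted p = 0.025), without Veh library 3 (0.69, adjusted p = 0.00637) and without library 3 of both groups (0.50, adjusted p = 0.00034). It was also called with all libraries when low counts were not filtered (0.49, edgeR adjusted p = 2.51e-09). That unfiltered fit gave a far smaller edgeR adjusted p to Enpep too (0.0214 with the filter, 1.33e-13 without), at nearly the same log2 fold change. Across all single omissions the log2 fold change of Mep1b was 0.29 to 0.69. With all libraries Mep1b was not called by DESeq2 (adjusted p = 0.364) or limma-voom (adjusted p = 0.0692). The authors' deposited table has it at an FDR of 0.553.

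The meprin genes thus had log2 fold changes of opposite sign, and only that of Mep1a was called. Within a library the ratio of Mep1a to Mep1b reads needs no scaling between libraries. It was 0.107, 0.129 and 0.0789 in RA libraries 1, 2 and 3, against 0.236, 0.334 and 0.183 in Veh libraries 1, 2 and 3, with no overlap between the groups. The log2 ratio was lower in RA by 1.24 (-3.28 ± 0.36 in RA and -2.04 ± 0.44 in Veh, SD, n = 3 each), with an exact two-sided permutation p of 0.1, the smallest that 3 against 3 libraries can give. It was between -1.44 and -1.01 when 1 library was left out.

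Enpep encodes aminopeptidase A, which removes acidic residues from the amino end and turns angiotensin II into angiotensin III (ENSMUSG00000028024, mm10 chromosome 3, 129269175 to 129332720, minus strand). It was at 19.3, 26.7 and 35.2 CPM in RA libraries 1, 2 and 3, against 36.9, 41.2 and 61.6 CPM in Veh libraries 1, 2 and 3. Library 3 was the highest of each group, and the groups were separated by less than the spread within either. The mean was 27.1 ± 7.94 CPM in RA and 46.6 ± 13.2 CPM in Veh (SD, n = 3 each), and the fold was 0.582 (log2 fold change -0.78, SE 0.20, edgeR adjusted p = 0.0214). This was the least secure of the 4 calls. It was lost without RA library 1 (-0.58, adjusted p = 0.0924), without RA library 2 (-0.77, adjusted p = 0.0639), without Veh library 3 (-0.53, adjusted p = 0.0873) and with DESeq2 in place of edgeR (-0.78, adjusted p = 0.144). Without library 3 of both groups it was -0.78 with an adjusted p of 0.000178.

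Xpnpep2 encodes the membrane-bound aminopeptidase P, which releases an amino-terminal residue that stands before proline (ENSMUSG00000037005, mm10 chromosome X, 48108725 to 48136981, plus strand). Its level was 9.38, 8.20 and 8.29 CPM in RA libraries 1, 2 and 3, against 12.8, 13.4 and 13.6 CPM in Veh libraries 1, 2 and 3. Each group was tight and the groups were well apart. The mean was 8.62 ± 0.654 CPM in RA and 13.2 ± 0.412 CPM in Veh (SD, n = 3 each), and the fold was 0.653 (log2 fold change -0.61, SE 0.13, edgeR adjusted p = 0.0058). The call was kept without each library in turn (-0.68 to -0.58).

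Anpep encodes aminopeptidase N, the broad neutral aminopeptidase of the brush border (ENSMUSG00000039062, mm10 chromosome 7, 79821803 to 79848210, minus strand). It was at 33.3, 33.4 and 57.7 CPM in RA libraries 1, 2 and 3, against 35.4, 66.2 and 55.4 CPM in Veh libraries 1, 2 and 3. RA library 3 lay among the higher Veh libraries and Veh library 1 beside the lower RA libraries, so the groups overlapped. The fold was 0.796 with a 95% interval from 0.58 to 1.09, which allows a fall or a small rise (log2 fold change -0.33, SE 0.21, edgeR adjusted p = 0.423). Without RA library 3 Anpep was called lower in edgeR (-0.65, adjusted p = 0.00611), and likewise without library 3 of both groups (-0.60, adjusted p = 0.0213) and with all libraries when low counts were not filtered (-0.32, adjusted p = 0.00627). Without Veh library 2 its log2 fold change was -0.12. With all libraries Anpep was not called by DESeq2 (adjusted p = 0.734) or limma-voom (adjusted p = 0.451).

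Dpp4 encodes dipeptidyl peptidase 4, a serine peptidase that removes dipeptides ending in proline or alanine and inactivates the incretin GLP-1 (ENSMUSG00000035000, mm10 chromosome 2, 62330073 to 62412231, minus strand). It was at 7.78, 9.49 and 5.51 CPM in RA libraries 1, 2 and 3, against 7.22, 9.54 and 4.80 CPM in Veh libraries 1, 2 and 3. The groups covered nearly the same range, and library 3 was the lowest of each. The fold was 1.04 with a 95% interval from 0.734 to 1.48, which allows a fall or a rise (log2 fold change 0.06, SE 0.24, edgeR adjusted p = 0.921). The sign was negative without RA library 2 (-0.12) or without Veh library 3 (-0.15).

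Naaladl1 encodes a zinc peptidase of the glutamate carboxypeptidase II family (ENSMUSG00000054999, mm10 chromosome 19, 6105782 to 6115792, plus strand). It was at 78.0, 87.2 and 112 CPM in RA libraries 1, 2 and 3, against 64.2, 70.8 and 85.9 CPM in Veh libraries 1, 2 and 3. The groups overlapped through Veh library 3 alone, which lay above RA library 1. The fold was 1.25 with a 95% interval from 1.05 to 1.5 (log2 fold change 0.33, SE 0.12, unadjusted p = 0.0181), which missed the threshold after adjustment (edgeR adjusted p = 0.123). In edgeR it was higher without Veh library 3 (0.45, adjusted p = 0.0355) and without library 3 of both groups (0.29, adjusted p = 0.0215), and with all libraries when low counts were not filtered (0.34, adjusted p = 0.000331). Without RA library 3 it was 0.17. With all libraries Naaladl1 was not called by DESeq2 (adjusted p = 0.0688) or limma-voom (adjusted p = 0.136).

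**Figure D2:**
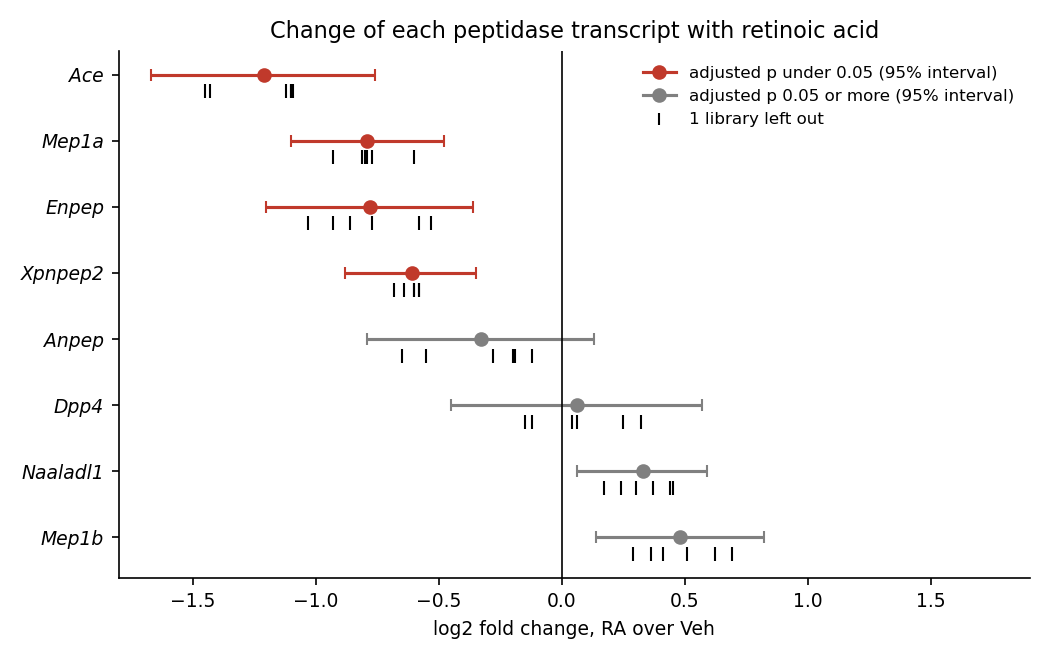
Log2 fold change of each transcript, RA over Veh, with its 95% interval from the edgeR fit. Red marks genes with an adjusted p under 0.05, grey marks the others, and black ticks show the values with 1 library left out. Ace lies lowest at -1.21 and Mep1b highest at 0.48, and the ticks of Dpp4 fall on both sides of 0.

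To set the genes against each other, levels were divided by the length of the exons of each gene model in GENCODE M21, whose bounds are those of the table for 6 of the 8 (Anpep and Mep1b start further upstream there). On this scale, CPM per kilobase of exon, the members spanned from Mep1b at 52.3 ± 12.2 in RA and 37.6 ± 9.11 in Veh to Dpp4 at 1.44 ± 0.379 in RA and 1.36 ± 0.449 in Veh (SD, n = 3 each). In RA the order below Mep1b was Naaladl1 (37.0), Anpep (10.9), Enpep (6.47), Mep1a (4.07), Xpnpep2 (1.82), Ace (1.46) and Dpp4. In Veh it was Naaladl1 (29.6), Anpep (13.8), Enpep (11.1), Mep1a (7.03), Ace (3.42), Xpnpep2 (2.79) and Dpp4. Mep1b and Naaladl1 overlapped in each group, and so did Xpnpep2 and Ace. Ace and Dpp4 overlapped in RA, where in Veh all Ace libraries lay above all Dpp4 libraries, and Anpep and Enpep overlapped in Veh. Ranked by the longest coding transcript in place of all exons, Xpnpep2 stood above Ace in Veh too.

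**Figure D3:**
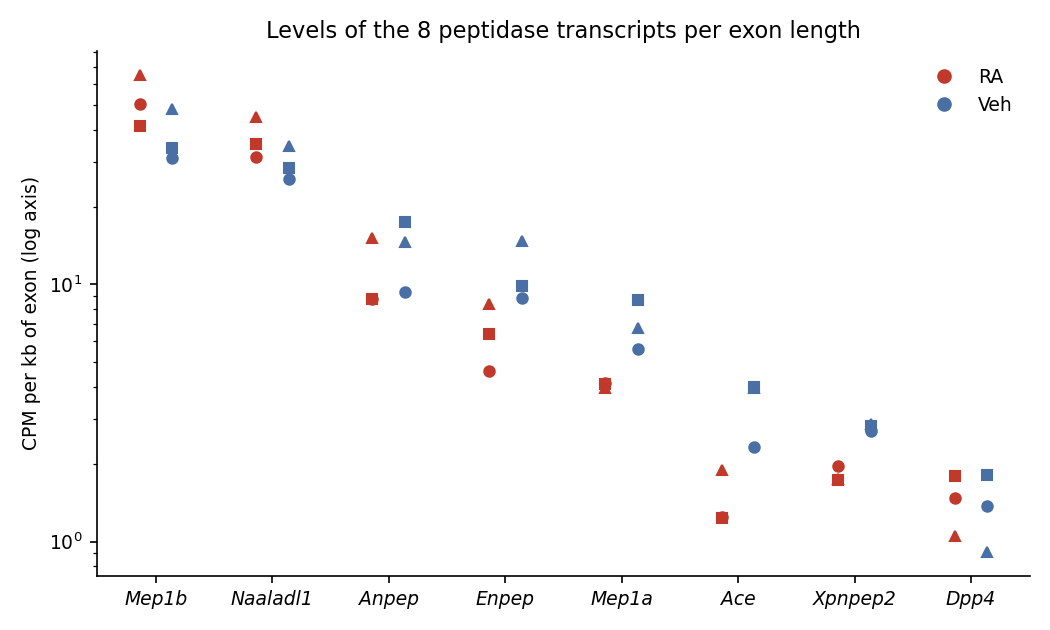
Level of each transcript per kilobase of exon in every library, on a log axis, with RA in red left of Veh in blue and marker shapes (circle, square, triangle) for libraries 1, 2 and 3. Mep1b and Naaladl1 lie between 25.8 and 65.4, and the other 6 genes lie at 17.4 or below.

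The sum over the 8 genes differed little between the groups, while its makeup did. The summed level was 281, 278 and 389 CPM in RA libraries 1, 2 and 3, against 256, 325 and 371 CPM in Veh libraries 1, 2 and 3. In each group library 3 had the highest sum. Of the summed CPM per kilobase, Mep1b made up 45.2% ± 3.65 in RA and 35.1% ± 3.21 in Veh, and Naaladl1 32.2% ± 2.42 in RA and 27.8% ± 1.59 in Veh (SD, n = 3 each). Enpep made up 5.57% ± 0.995 in RA and 10.3% ± 1.23 in Veh, and Mep1a 3.63% ± 0.728 in RA and 6.66% ± 1.40 in Veh. Ace made up 1.26% ± 0.0690 in RA and 3.17% ± 0.528 in Veh. These shares add to a whole within a library, so they are not separate from one another, and no test was made of them.

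Within a group some members varied together, and Dpp4 went the other way from Mep1b, Enpep and Naaladl1. Library 3 was the highest of its group in 5 of 8 members in RA (Ace, Mep1b, Anpep, Enpep and Naaladl1) and in 4 in Veh (Mep1b, Enpep, Naaladl1 and Xpnpep2), and in 3 members in both (Mep1b, Enpep and Naaladl1). Dpp4 was lowest in library 3 of both groups, 0.42 below its RA mean and 0.52 below its Veh mean on the log2 scale. The enterocyte markers had their highest sum in library 3 of each group as well (1053 CPM in RA and 1073 in Veh), and the 4 enteroendocrine markers had their lowest sum there (741 CPM in RA and 695 in Veh). The part of these markers in the spread of the peptidases was not tested.

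**Figure D4:**
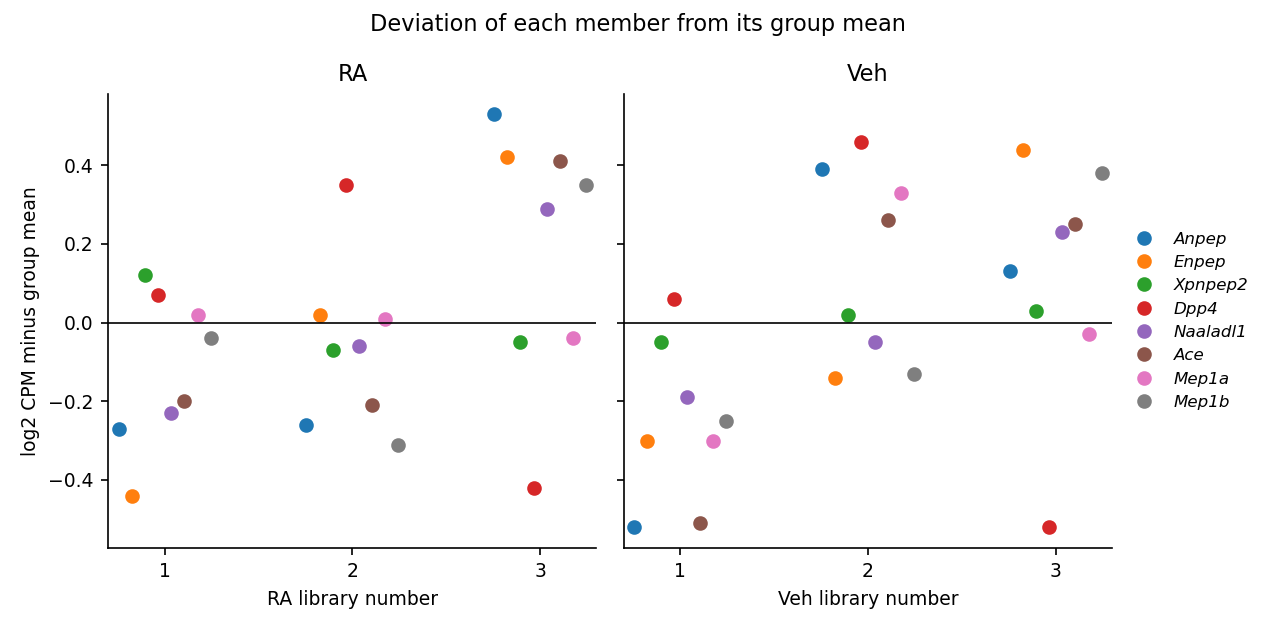
Deviation of each member's log2 CPM from the mean of its group, by library number, RA at left and Veh at right, 1 colour per gene and small horizontal offsets for legibility. In library 3 Enpep lies 0.42 above its RA mean and 0.44 above its Veh mean, and Dpp4 lies lowest in both panels.

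As a description over 6 libraries that share their treatment groups, the deviations from the group means had a correlation of 0.98 between Enpep and Naaladl1, 0.97 between Ace and Anpep, 0.85 between Mep1b and Naaladl1, and -0.89 between Mep1b and Dpp4. Over all 28 pairs the median was 0.26, and 19 pairs were above 0. Ace and Mep1a, which both fell, had 0.58, and Mep1a and Mep1b had 0.01. Dpp4 had 0.43 with Mep1a and -0.05 with Xpnpep2. Xpnpep2 had its highest such value, 0.32, with Mep1a. Among 10223 other genes averaging 5 CPM or more, the transcripts with the most similar profile over the 6 libraries were Msi1 for Ace (Pearson's r = 0.996), Mroh2a for Mep1a (0.999), Secisbp2 for Mep1b (0.998), Marc2 for Anpep (0.989), Vgf for Dpp4 (0.994), Paxip1 for Enpep (0.991), Cep192 for Xpnpep2 (0.992) and Lamtor2 for Naaladl1 (0.998). The next ones were Selenoo, Sox4, Kalrn, Ring1, Tns2, Zcchc14, Zfp512b and Arhgap27os2, in the same order of members, at 0.987 to 0.996. With so many genes and 6 libraries, values near 1 are found for each member.

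The 4 genes that fell are shown by the 120 bases before their RefSeq start, so that the sequence at which their transcription begins can be read beside their values. The sequences are those of RefSeq on build GRCm38.p6 (mm10), on the strand of the gene and 5′ to 3′. Capitals mark matches to the motifs searched that lie wholly within the 120 bases. The stretch of Ace is chr11:105967828-105967947 on the plus strand, that of Enpep chr3:129332750-129332869 on the minus strand, that of Mep1a chr17:43502774-43502893 on the minus strand and that of Xpnpep2 chrX:48108605-48108724 on the plus strand.
Ace: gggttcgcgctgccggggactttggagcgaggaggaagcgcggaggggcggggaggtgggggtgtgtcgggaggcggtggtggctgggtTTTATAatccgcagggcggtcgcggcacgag
Enpep: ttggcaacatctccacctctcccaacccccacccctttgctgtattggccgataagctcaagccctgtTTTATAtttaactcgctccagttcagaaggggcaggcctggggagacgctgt
Mep1a: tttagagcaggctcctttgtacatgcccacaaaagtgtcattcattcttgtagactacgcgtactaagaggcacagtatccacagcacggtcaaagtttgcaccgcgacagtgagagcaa
Xpnpep2: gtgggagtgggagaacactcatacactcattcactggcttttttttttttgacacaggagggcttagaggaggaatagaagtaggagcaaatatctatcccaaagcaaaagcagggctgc

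Windows from 250 bases before to 50 after a start were found for 6 of the 8 members, with 2 windows for Ace and none for Naaladl1 and Mep1b. They were searched on both strands for the TATA box (TATAAA), for a motif of GATA factors (AGATAA) and for a motif of CDX factors (TTTATG). A form of the last that differs in its final letter (TTTATT) was also searched. The HNF4 motif used was CAAAGTCCA. The HNF1-type motif used was GTTAAT. Also searched were the nuclear receptor core motif AGGTCA and its frequent variant GGTTCA, each alone and either of them paired as a direct repeat with 5 bases between, the arrangement that retinoic acid receptors often bind. TATAAA was found in 3 of the 7 windows (Ace, Enpep and Dpp4) and in 13.6% of all 32851 windows of this length. Counted in bases from the start, the matches began at -31 in Ace and at -52 and -1 in Enpep, all on the reverse strand. The match in Dpp4 began at -227. The Enpep match at -1 runs past the start and is not in capitals above. AGGTCA was found once, in the second Ace window, and in 16.3% of all windows. That window lies inside the gene, the 120 bases before its start being chr11:105975069-105975188. Gene counts do not show which start of Ace was used in the enteroids. AGATAA was found in Dpp4 (11.2% of all windows) and TTTATG in Mep1a, past its start (11.9% of all windows). The other 4 single motifs were in none of the 7 windows. They were in 19.6% (TTTATT), 0.475% (HNF4 motif), 7.1% (HNF1-type motif) and 10.4% (GGTTCA) of all windows. The direct repeat was in none of the 7 and in 0.0183% of all. A repeat this rare would be missing from almost any 7 windows, so its absence says nothing about these genes. Pairs of other core motifs were not searched. TTTATG and TTTATT share their first 5 letters with each other and with the reverse complement of TATAAA.

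Of 35 other membrane and luminal peptidases 20 were tested, of which 3 rose (median log2 fold change 0.09). The 3 were Prss32, a serine protease gene, at 543 ± 16.9 CPM in RA and 398 ± 21.7 CPM in Veh (log2 fold change 0.45, SE 0.06), the membrane serine protease gene Tmprss2 (0.30, SE 0.05) and the aspartyl protease gene Bace2 (0.36, SE 0.10). The call of Bace2 was lost without every library in turn except RA library 3 (adjusted p up to 0.202). Enteropeptidase, encoded by Tmprss15, and the Naaladl1 relative Folh1 were too low to be tested, and the gamma-glutamyltransferase family gene Ggt6 was at 53.8 ± 3.3 CPM in RA and 55.5 ± 2.62 CPM in Veh. Of 29 intracellular peptidases of peptide breakdown all were tested and none was called in edgeR (median log2 fold change 0.06). DESeq2 called 2 higher and 0 lower, limma-voom 1 higher and edgeR with no filter on low counts 3 higher and 1 lower, and edgeR called 2 higher and 1 lower without RA library 3 and 1 higher without Veh library 2 or without library 3 of both groups.

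Among 15 genes for uptake of peptides and amino acids 13 were tested, 3 fell and 1 rose (median log2 fold change -0.19). Slc6a14, a broad amino acid importer, fell to 3.85 ± 0.537 CPM in RA, against 10.7 ± 0.560 CPM in Veh (log2 fold change -1.48, SE 0.16), Slc16a10, an aromatic amino acid transporter, by 0.88 on the log2 scale (SE 0.12) and Slc3a1, the heavy subunit of the cystine transporter, by 0.52 on the log2 scale (SE 0.10). Slc1a5, a glutamine transporter gene, rose 1.21-fold. Slc15a1, which encodes the di- and tripeptide transporter PEPT1, was at 1.96 ± 0.804 CPM in RA and 1.80 ± 0.711 CPM in Veh, and Slc6a19, a neutral amino acid transporter gene, at 9.03 ± 2.81 CPM in RA and 14.3 ± 4.49 CPM in Veh (log2 fold change -0.66, edgeR adjusted p = 0.0996). Slc6a19 was called lower without RA library 3 (-0.95), without Veh library 1 (-0.88) and without library 3 of both groups (-0.73). With all libraries it was also called lower by DESeq2 (-0.66, adjusted p = 0.0402) and by edgeR when low counts were not filtered (-0.65, adjusted p = 0.000204). Slc15a1 had a log2 fold change between -0.22 and 0.46 when 1 library was left out. The number lower was 6 without RA library 3 or without library 3 of both groups, and the number higher was 2 without library 3 of either or both groups. Of 13 genes for substrates and inhibitors of the members 11 were tested, 2 rose (Pyy, a peptide hormone gene, 2.16-fold, and Sst) and none fell (median 0.10). The call of Sst was lost without RA library 1 or without Veh library 2 or 3, which left 1 higher, and without library 3 of both groups, where Sst was lost too, 1 was higher and 2 lower. Without library 3 of either single group 1 was lower. Muc2, the gene of a meprin beta substrate, was at 112 ± 18.9 CPM in RA and 133 ± 13.7 CPM in Veh (edgeR adjusted p = 0.161), and was called lower without RA library 3 (-0.41) or library 3 of both groups (-0.49), and when low counts were not filtered (-0.25).

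**Figure D5:**
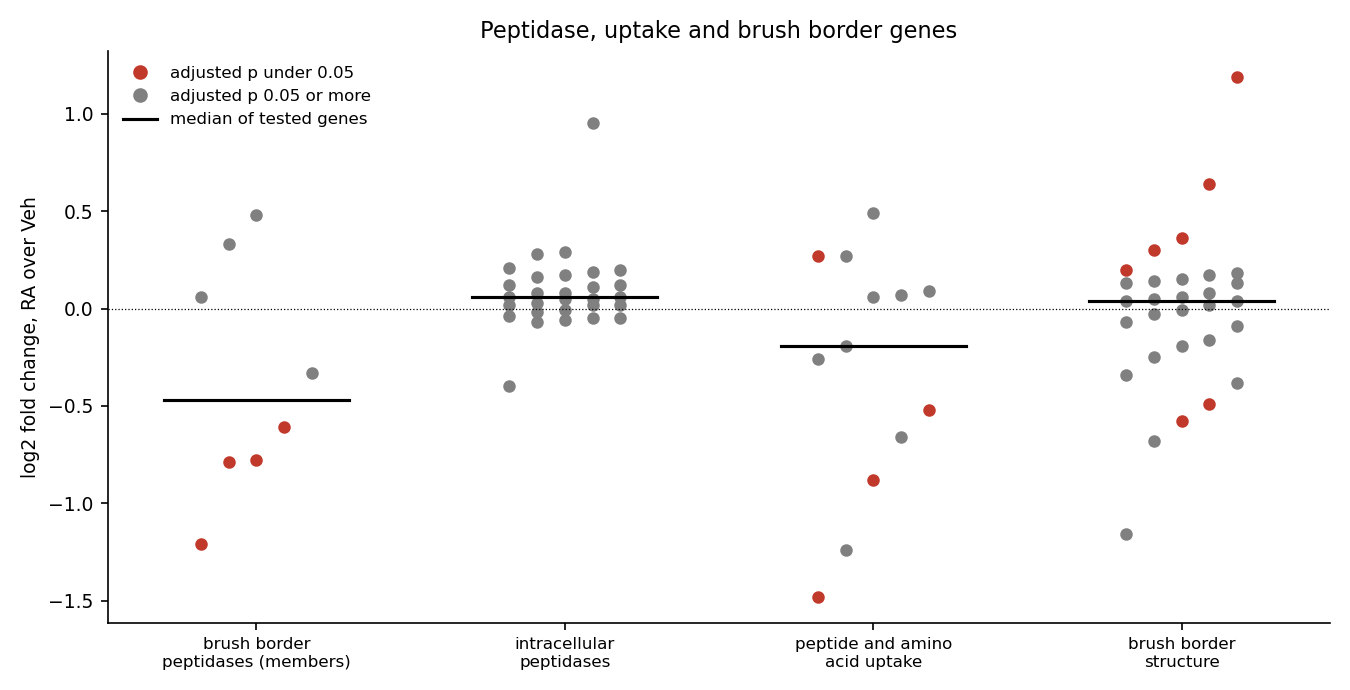
Log2 fold change, RA over Veh, of the tested genes among the 8 members and 3 lists (intracellular peptidases, uptake and brush border structure), 1 point per gene (small horizontal offsets for legibility), with red for an adjusted p under 0.05 and black lines for medians. The members have a median of -0.47, and the intracellular peptidases have no red point.

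Genes of the brush border scaffold were called in both directions. Of 30 structural genes, all tested, 5 rose and 2 fell (median log2 fold change 0.04). Mall (0.64, SE 0.07) and Ceacam1 (1.19, SE 0.14), an adhesion molecule gene, rose, and Baiap2l2 (-0.58, SE 0.07) and Cobl (-0.49, SE 0.06), an actin nucleator gene, fell. Vil1, the gene of the bundling protein villin, was at 643 ± 29.1 CPM in RA and 587 ± 21.3 CPM in Veh and was not called (edgeR adjusted p = 0.19). The number lower was 6 without RA library 3 and 5 without library 3 of both groups. Among 27 disaccharidase, phosphatase and villus enterocyte genes 23 were tested, 4 rose and 4 fell (median -0.06). Alpi, the intestinal alkaline phosphatase gene, fell to 11.9 ± 1.19 CPM in RA, against 21.2 ± 5.54 CPM in Veh (log2 fold change -0.83, SE 0.17), and Apob, of chylomicrons, fell by 0.40 on the log2 scale (SE 0.08). Sis, the sucrase-isomaltase gene, was at 292 ± 80.2 CPM in RA and 384 ± 28.6 CPM in Veh (edgeR adjusted p = 0.0863), and was called lower without RA library 3 (-0.64) or library 3 of both groups (-0.58), and when low counts were not filtered (-0.38). The risers included the fatty acid- and bile acid-binding protein genes Fabp1 (4.71, SE 0.27) and Fabp6 (7.80, SE 0.21), each under 1 CPM in Veh, and Mttp (0.52, SE 0.10), the lipid loader of chylomicrons. The number lower was 9 without RA library 3 or without library 3 of both groups.

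Of 22 enterocyte transcription factor genes, all tested, 5 rose and 4 fell (median log2 fold change 0.08), and 8 rose without RA library 3. Isx, a repressor of vitamin A uptake genes, rose to 660 ± 27.2 CPM in RA, against 97.8 ± 28.8 CPM in Veh (log2 fold change 2.76, SE 0.14), and Ppara (1.25, SE 0.16), Elf3 (0.65, SE 0.06) and Hnf4a (0.23, SE 0.05) also rose, while Vdr, the vitamin D receptor gene, fell by 0.47 on the log2 scale (SE 0.07). The call of Hnf4a was lost without RA library 1 or Veh library 1 (edgeR adjusted p = 0.0511 and 0.0626). Cdx2, the intestinal homeobox gene, was at 541 ± 21.4 CPM in RA and 519 ± 24.9 CPM in Veh. The number lower was 2 without RA library 1 or 2 or without Veh library 2. Among 16 genes of retinoic acid receptors and their direct targets 10 were tested, 5 rose and none fell (median 0.40), where 1 was lower without Veh library 1 or 3. Cyp26b1, which breaks down retinoic acid, was at 921 ± 174 CPM in RA and 0.852 ± 0.482 CPM in Veh, and Dhrs3 (2.13, SE 0.13), Rarg (0.53, SE 0.09) and Nrip1 (0.31, SE 0.06) were among the others.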

How the data were processed

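RNA of 6 enteroid cultures was sequenced, per the labels' protocols, from directional polyA libraries. The authors deposited raw read counts per gene in 1 table, with DESeq p-values, FDR and log2 fold changes per the file headers. Reads were mapped to mm10, per the submitters' processing notes, and the aligner, annotation and strand setting are not stated in the labels or headers. From the counts, edgeR 4.0.16 (R 4.3.3) fitted RA against Veh with TMM scaling, its expression filter and quasi-likelihood tests, with adjustment over 13700 genes. Alternatives used DESeq2 1.42.0, limma 3.58.1 (voom), other scaling and filters, a 1.5-fold threshold, a replicate block and single omissions. The fit was also run on counts simulated from the means and dispersions estimated in these libraries. As the simulation used the same model, it cannot show whether that model suits the real libraries. Library totals are given above. Intervals of fold changes are those of the fitted difference between the groups, from its standard error in the edgeR fit. Named genes were all 8 members, up to 4 called genes per list with the smallest p, and listed enterocyte genes whatever their result. Genes named outside that rule (Tmprss15, Folh1, Ggt6) were chosen after their values were seen. The members and lists were chosen with earlier results of these data known. Exon lengths are from GENCODE M21, and promoters from RefSeq (GRCm38.p6). Protein sequences were not used, and some results of the gene lists are not reported here.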

Additional observations from a re-analysis of the deposited data

How the results depend on the processing

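With 1 library left out, the number of all genes called was 443 to 978 higher and 289 to 787 lower, both extremes being the fits without RA library 1 and without RA library 3. Members called higher were 0 to 2 and members called lower 3 to 5. The log2 fold change was 0.29 to 0.69 for Mep1b, -0.65 to -0.12 for Anpep, -1.03 to -0.53 for Enpep, 0.17 to 0.45 for Naaladl1, -0.15 to 0.32 for Dpp4 and -0.22 to 0.46 for Slc15a1, and the last 2 changed sign. Without library 3 of both groups, a choice made after the data were seen, 2 members were higher and 5 lower, with Mep1b at 0.50, Anpep at -0.60, Naaladl1 at 0.29 and Slc15a1 at -0.03. Against a threshold of 1.5-fold (glmTreat), 77 genes were higher and 22 lower, and 0 members were lower, the fold changes being those of Ace (-1.21), Mep1a (-0.79), Enpep (-0.78) and Xpnpep2 (-0.61). Under DESeq2 Enpep was lost (-0.78, adjusted p = 0.144). With no filter on low counts 2 members were higher and 5 lower, as Mep1b (0.49), Anpep (-0.32) and Naaladl1 (0.34) passed. Over all genes that fit called 968 higher and 752 lower. The log2 fold changes of the members hardly moved in it, while many edgeR adjusted p fell far. That of Enpep went from 0.0214 to 1.33e-13 and that of Ceacam1 from 8.15e-05 to 1.01e-86, while Dpp4 stayed uncalled. The cause was not tested. The replicate block gave 1224 genes higher and 1052 lower, and 2 members higher (Mep1b 0.48, adjusted p = 7.83e-05, and Naaladl1 0.32, adjusted p = 0.000509) and 4 lower. Under the block 4 intracellular peptidases were higher and 1 lower, 3 uptake genes higher and 6 lower, 8 structural genes higher and 6 lower, 9 villus enterocyte genes lower, 8 transcription factor genes higher, 1 substrate or inhibitor gene lower and 2 retinoic acid receptor or target genes lower. It also moved single genes, as Slc6a19 (-0.65) and Sis (-0.43) were called lower and Vil1 (0.13) higher. Libraries of the same number had correlations of their deviations of 0.128, 0.098 and 0.257, and each correlated best with its own number, a hint from the data and not from the design. The within-library ratio of Mep1a to Mep1b kept its sign under all 8 alternatives run for it.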
